A study of Mus musculus with 2 samples.

Results

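The lung's proteoglycan matrix is described here through 9 genes: 7 small leucine-rich proteoglycans (Dcn, Bgn, Aspn, Lum, Fmod, Prelp and Ogn), the large hyaluronan-binding proteoglycan versican (Vcan) and the basement membrane proteoglycan perlecan (Hspg2). They were chosen by gene symbol, and all 9 were found among the 27998 genes of the count matrices. Their transcripts were followed in stromal cells from C57Bl6 mouse lungs. Every mouse received bleomycin, a DNA-damaging drug used to injure the lung and induce fibrosis, on day 1. One library came from mice given vehicle and the other from mice given navitoclax (ABT-263), an inhibitor of the anti-apoptotic BCL-2 family, from day 15 to day 20, and lungs were taken 21 days after the injury. Sorted epithelial and stromal cells had been pooled in equal parts and profiled by droplet 3′ single-cell RNA sequencing. There was 1 library per group and no uninjured library is analysed here, and the labels used here do not give the number, age or sex of the mice in a library. A difference between the groups is therefore a difference between 2 libraries, with no replicate check and no p-value.

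Small leucine-rich proteoglycans are short secreted core proteins built from leucine-rich repeats, most of which carry chondroitin, dermatan or keratan sulfate chains. They sit on collagen fibrils, set how the fibrils are spaced and thickened, and several of them bind growth factors of the TGF-β family. Versican forms hydrated aggregates with hyaluronan in provisional matrix, and perlecan carries heparan sulfate chains and links laminin and collagen IV networks in basement membranes. In the lung these proteins are made largely by fibroblasts, and their amounts are known to change in fibrotic tissue.

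A promoter was found for 7 of the 9 genes in the RefSeq table (GRCm38.p6), a window of 250 bases before to 50 bases after the annotated start. Those of 4 genes are shown because the text sets their expression against each other. Asporin was concentrated in the peribronchial-like fibroblasts described below and lower in the other classes. Its chromosome 13 neighbour osteoglycin was spread more evenly over the classes. Versican was the member past 1.5-fold between libraries in the pooled fibroblasts, and perlecan varied least between fibroblast classes among the members shown. Each is written 5′ to 3′ on the gene's strand in lower case, with every CG dinucleotide in capitals.
Aspn, chr13:49544193-49544492, plus strand: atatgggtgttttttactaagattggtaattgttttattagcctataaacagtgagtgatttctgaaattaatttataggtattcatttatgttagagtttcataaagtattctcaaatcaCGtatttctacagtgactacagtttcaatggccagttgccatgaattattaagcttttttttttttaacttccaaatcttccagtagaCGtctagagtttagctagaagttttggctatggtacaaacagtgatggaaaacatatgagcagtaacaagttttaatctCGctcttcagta
Ogn, chr13:49607765-49608064, plus strand: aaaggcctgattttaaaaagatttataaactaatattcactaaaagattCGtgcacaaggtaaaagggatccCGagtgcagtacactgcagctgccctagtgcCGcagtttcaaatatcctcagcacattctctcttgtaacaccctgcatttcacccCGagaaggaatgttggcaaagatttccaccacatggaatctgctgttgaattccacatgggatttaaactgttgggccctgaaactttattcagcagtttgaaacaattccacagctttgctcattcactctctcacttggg
Vcan, chr13:89742463-89742762, minus strand: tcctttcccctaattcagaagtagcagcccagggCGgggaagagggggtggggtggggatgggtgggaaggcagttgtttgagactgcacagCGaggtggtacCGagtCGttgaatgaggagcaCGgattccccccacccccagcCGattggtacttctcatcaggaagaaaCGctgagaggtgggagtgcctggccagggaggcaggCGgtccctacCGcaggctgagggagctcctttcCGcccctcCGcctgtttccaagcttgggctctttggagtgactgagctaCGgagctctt
Hspg2, chr4:137468553-137468852, plus strand: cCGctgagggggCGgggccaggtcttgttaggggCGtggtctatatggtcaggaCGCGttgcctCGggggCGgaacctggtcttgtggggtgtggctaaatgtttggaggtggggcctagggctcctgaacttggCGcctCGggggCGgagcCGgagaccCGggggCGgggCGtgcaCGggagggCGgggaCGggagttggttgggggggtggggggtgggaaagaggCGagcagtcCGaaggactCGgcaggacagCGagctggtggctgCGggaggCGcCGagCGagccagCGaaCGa
The Aspn window held 3 CG dinucleotides at 31% G+C and the Ogn window 4 at 42.3%. The Vcan window held 12 and the Hspg2 window 27, the latter at 70.3% G+C. The other windows held 3 (Fmod), 7 (Prelp) and 9 (Bgn), against a median of 7 over 32851 RefSeq promoters of the same length. The letters TATAAA, searched on both strands, occurred 2 times each in the Aspn and Ogn windows and in none of the other 5, and 13.62% of all promoters held them at least once. A match describes the letters only.

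In the GENCODE M21 annotation of the same genome, GRCm38 (mm10), 6 of the members lie in 3 pairs. Dcn (chr10:97479609-97518143) and Lum (chr10:97565128-97572703) were 46.98 kb apart on the plus strand with no coding gene between them. Aspn (chr13:49544443-49567565) and Ogn (chr13:49608046-49624501) were 40.48 kb apart, with osteomodulin (Omd) between them, and Ecm2 lay on the other side of Aspn. Prelp (chr1:133910304-133921414, minus strand) and Fmod (chr1:134037254-134048277, plus strand) were 115.8 kb apart. Bgn (chrX:73483602-73495933), Vcan (chr13:89655312-89742509) and Hspg2 (chr4:137468769-137570630) stood alone. Aspn and Ogn lie inside Cenpp, and Prelp and Vcan overlap the antisense genes Gm15851 and Gm4117, all on the opposite strand.

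The vehicle library held 8784 barcodes and 97958947 UMIs (unique molecular identifiers, each counting 1 captured transcript), and the navitoclax library 8064 barcodes and 98517048 UMIs. The libraries had 20 barcodes in common. After filtering, 7174 and 6240 cells were clustered together with the 9 members left out of the genes used, and clusters were named from marker genes that include no member. The fibroblasts comprised 3129 vehicle and 2563 navitoclax cells with median depths of 7870 and 8707 UMIs. They fell into alveolar-like (1297 and 997 cells), adventitial-like (572 and 493), peribronchial-like (227 and 246) and inflammatory-like cells (100 and 85). A remaining 933 and 742 fibroblasts took no subtype name. When each cell was assigned by its own markers, 1550 of these 1675 cells were alveolar-like. Levels are given as CPM, a gene's UMIs per 1000000 UMIs of its class. The unnamed fibroblasts form cluster 3, led by Spp1, Lpl and Mfap5, and cluster 9, led by Ltbp2, Fn1 and Eln. The marker list that scored highest was the fibrotic one in cluster 3 and the alveolar fibroblast one in cluster 9. Spp1 stood at 1090 CPM in the vehicle and 57.2 in the navitoclax cells of these unnamed fibroblasts. Smooth-muscle-rich mural-like cells (47 and 41) and mesothelial-like cells (62 and 37) were below 50 cells in at least 1 library, so their levels are given and no library ratio is read from them.

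The markers listed first for the alveolar, adventitial and peribronchial subtypes followed the names, while several other adventitial markers did not. Npnt, an alveolar fibroblast marker, stood at 3603 and 3407 CPM in alveolar-like cells of the vehicle and navitoclax libraries. It also stood at 1919 and 1741 CPM in the unnamed fibroblasts and at 1274 and 930 in inflammatory-like cells. Pi16, an adventitial marker, stood at 883 and 818 CPM in adventitial-like cells and at 5.27 or less in the other fibroblast classes. Cd248, Adh7 and Col14a1 were also highest there among the fibroblast classes. Sema3c (27.86 and 28.85 CPM) and Dpt (870 and 803) were higher in peribronchial-like cells (233 and 257.5, 924 and 870). Mfap5 (1087 and 986) was higher in the unnamed fibroblasts (1475 and 1368). Dpp4 stood at 8.719 and 3.005 CPM in adventitial-like and at 379.5 and 270.7 in mesothelial-like cells. Hhip, a peribronchial marker, stood at 2306 and 2452 CPM in peribronchial-like cells. Saa3, listed first for inflammatory fibroblasts, had no UMI in the vehicle cells of that class and 274 CPM in the navitoclax cells, whose name rests on both libraries together. Ccl2 (200.5 and 283.7 CPM) was higher there than in any other fibroblast class. Cxcl1 (23.0 and 40.7) was higher in adventitial-like cells (104 and 133), and Hp (97.5 and 142.5) in the unnamed fibroblasts (254 and 339). Lcn2 stood at 19.0 and 24.4 CPM, against 18.9 and 46.6 in the unnamed. The cluster was led by Ccl2, Gm26870 and Cdkn1a, and 152 of its 185 cells were alveolar-like when assigned by their own markers. A small alveolar-like cluster of 71 cells was led by the interferon-response genes Ifit3 and Ifit1. Markers of alveolar type II cells summed to 17500 to 33760 CPM in mural-like and mesothelial-like cells and to 2583 to 6839 CPM in the fibroblast classes. Their part in the mural and mesothelial levels was not tested.

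Dcn, Aspn and Lum differed by over 100-fold between fibroblast classes, while neighbouring classes of Vcan overlapped between libraries at 5 of 6 steps and those of Hspg2 at 3 of 6. Decorin and lumican were adventitial and peribronchial transcripts, asporin was peribronchial, osteoglycin and PRELP were highest in alveolar-like cells, and biglycan was abundant in every class. In the pooled fibroblasts 1 of 9 members, Vcan, lay past 1.5-fold between libraries, where 0.462% of all genes with at least 20 UMIs did. All values below are CPM with exact Poisson 95% intervals where a range in parentheses follows. These intervals and those of ratios cover counting error only.

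Decorin (Dcn), which coats collagen fibrils and binds TGF-β, stood at 11560 CPM in adventitial-like cells of the vehicle library (11470 to 11650) and at 10880 in those of the navitoclax library (10790 to 10970). In alveolar-like cells it stood at 37.3 (33.5 to 41.3) and 49.9 CPM (45.2 to 54.95). The adventitial-like level was 310-fold (280 to 345) and 218-fold (198 to 241) the alveolar-like level in the 2 libraries. Peribronchial-like cells held 4303 and 4068 CPM and mesothelial-like cells 3355 and 3627, which placed them next in order, with no overlap between the libraries of neighbouring classes. The remaining fibroblasts held 798 and 643 CPM, nearly all of it in cluster 3 (1137 and 877) rather than cluster 9 (128 and 119). Adventitial-like cells made up 18.3% and 19.2% of the fibroblasts and held 81.7% and 81.0% of their Dcn UMIs.

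The low alveolar-like Dcn level was unevenly spread. In the vehicle library 16.7% of these cells had a Dcn UMI, and the 10% of cells with most held 76.0% of the UMIs. With every cell thinned to 2000 UMIs, 6.12% and 5.65% of alveolar-like cells had one, against 93.1% and 93.9% of adventitial-like cells. In type II epithelial cells, which should lack the gene, 1.43% and 2.18% had one at the same depth, and the level there was 6.91 and 6.48 CPM. Here and below, type II cells leave out clusters 4 (163 and 945 cells) and 5 (585 and 411). These stayed unnamed although the type II list scored highest in them. The size of the class difference depends on where the alveolar border is drawn. When each cell was assigned by its own markers, the vehicle log2 difference between adventitial-like and alveolar-like cells was 4.56 in place of 8.10. Of the Dcn UMIs in the vehicle cells then counted as alveolar-like, 52.4% came from 149 cells of the adventitial-like clusters, 42.2% from 867 of the unnamed fibroblasts and 2.63% from 1293 of the alveolar-like clusters.

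Biglycan (Bgn), decorin's closest relative and also a ligand of innate immune receptors when soluble, was high in all classes. Its lowest levels were 1452 and 1524 CPM in inflammatory-like cells and its highest 3557 and 3562 CPM in the unnamed fibroblasts. Alveolar-like cells held 3001 and 3376 CPM and adventitial-like cells 2965 and 3085, and these neighbours overlapped between libraries. Peribronchial-like cells held 1916 and 2048, mesothelial-like cells 1628 and 1776 and mural-like cells 1561 and 1740 CPM. After thinning to 2000 UMIs, 97.3% and 97.7% of all fibroblasts had a Bgn UMI, against 2.22% and 2.79% of type II cells.

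Asporin (Aspn), a relative of decorin whose amino-terminal region is rich in aspartate and which binds collagen and TGF-β, was concentrated in peribronchial-like cells at 3084 (2992 to 3178) and 3436 CPM (3348 to 3527). Mural-like cells followed at 349 and 329 CPM and adventitial-like cells at 175 and 169. The unnamed fibroblasts held 49.3 and 51.0 CPM and alveolar-like cells 9.78 and 13.3. In mesothelial-like cells 3 UMIs were counted in the vehicle library and 0 in the navitoclax library. The exact Poisson interval of that 0 count reached 8.609 CPM. The peribronchial-like level was 315-fold (257 to 391) and 259-fold (214 to 315) the alveolar-like level. Thinned to equal depth, 88.7% and 92.8% of peribronchial-like cells had an Aspn UMI, against 18.4% and 21.1% of adventitial-like and 1.55% and 1.72% of alveolar-like cells. In type II cells the shares were 0.0987% and 0.0871%. Peribronchial-like cells were 7.25% and 9.60% of the fibroblasts and held 74.0% and 79.2% of their Aspn UMIs.

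Lumican (Lum), a keratan sulfate proteoglycan that limits fibril width, followed asporin in its leading class. It stood at 1464 and 1582 CPM in peribronchial-like cells and at 232 and 351 CPM in adventitial-like cells. The unnamed fibroblasts held 29.9 and 21.8 CPM, and 94 of their 272 vehicle UMIs came from 1 cell. Alveolar-like cells held 1.03 and 1.59 CPM, from 10 and 13 UMIs, where type II and ciliated epithelial cells held 0.418 to 0.945 CPM. Lum in alveolar-like cells was thus close to the level of cells that should lack it. Among the adventitial-like cells, cluster 6 (led by Dcn, Ccl11 and Pi16) held 318 and 488 CPM and cluster 11 (led by Adh7, Aqp1 and Apod) 89.3 and 111 CPM.

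Fibromodulin (Fmod), which shares a collagen binding site with lumican, had a different distribution. It was highest in adventitial-like cells at 102.4 and 95.8 CPM, where cluster 6 held 142 and 144 CPM and cluster 11 held 36.8 and 11.01. Mesothelial-like cells held 82.9 and 67.7 CPM and the unnamed fibroblasts 68.6 and 53.6, and these 2 classes overlapped. Peribronchial-like cells, the leading class for lumican, held 8.03 and 1.81 CPM from 11 and 3 UMIs. No Fmod UMI was counted in mural-like cells of either library, with exact Poisson intervals that reached 12.05 and 9.861 CPM.

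**Figure D1:**
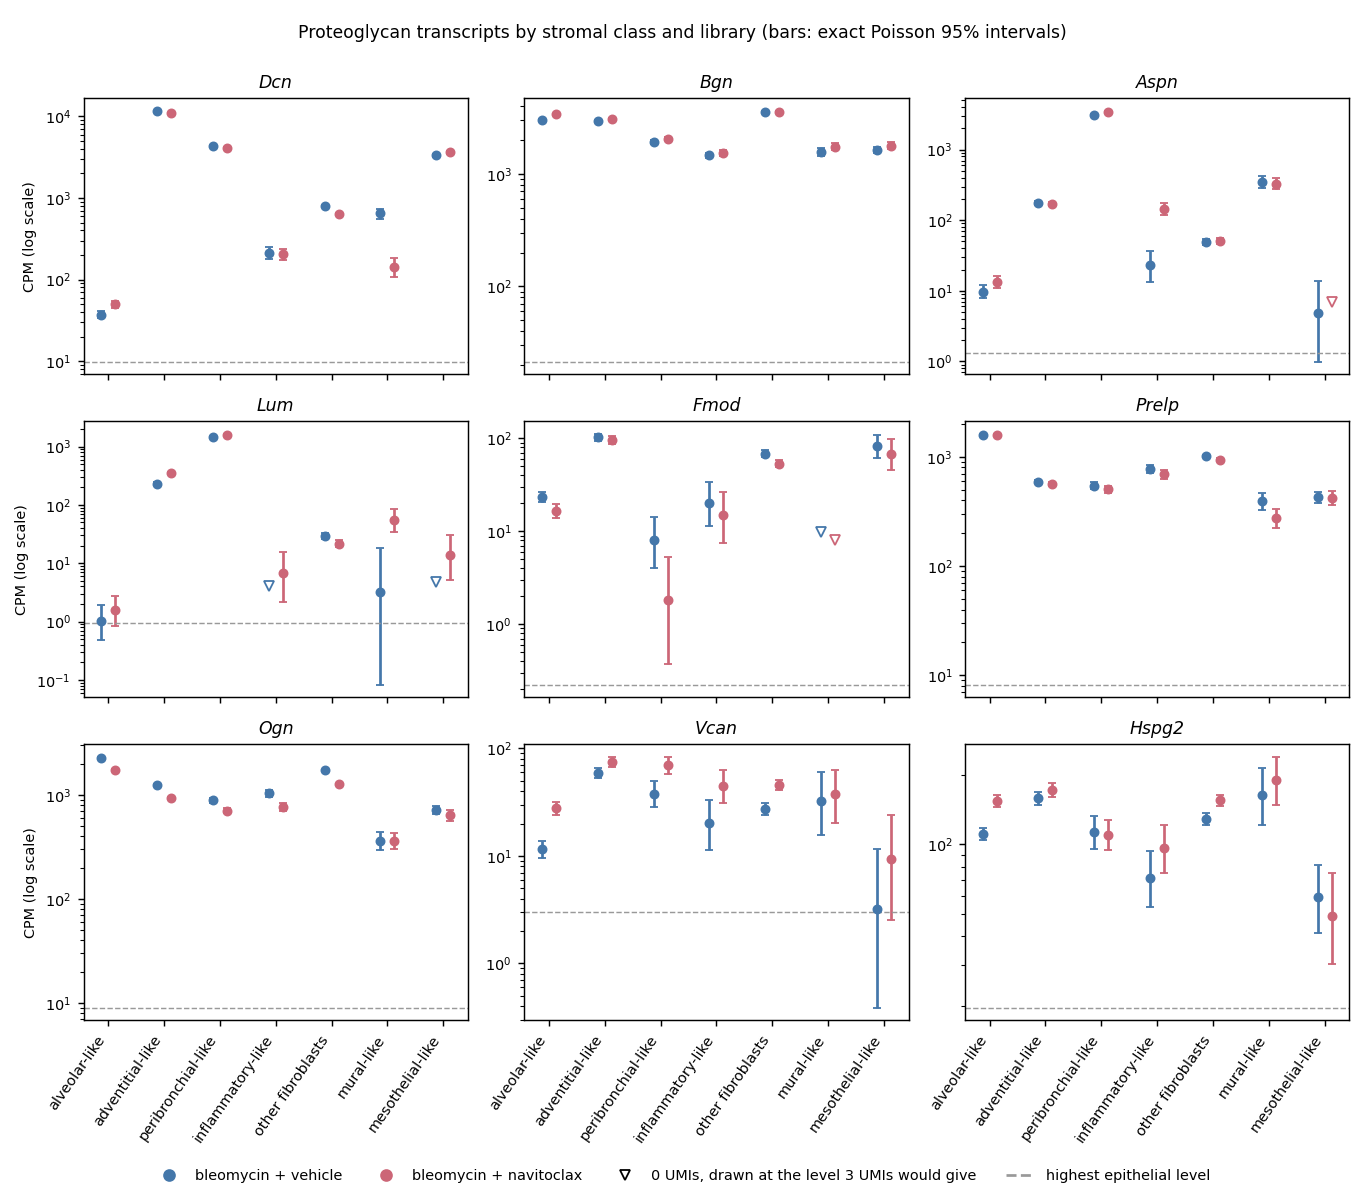
CPM of each of the 9 genes (vertical axis, log scale, with its own range per panel) in 7 stromal classes (horizontal axis) of the vehicle and navitoclax libraries, with exact Poisson 95% intervals. Dcn ran from 37.3 to 11560 CPM and Aspn reached 3436 CPM in peribronchial-like cells, while Bgn stayed between 1452 and 3562 CPM. The dashed line is the highest level in type II or ciliated epithelial cells, and open triangles mark classes with 0 UMIs, drawn at the level 3 UMIs would give.

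PRELP (Prelp), a heparin-binding member that anchors basement membranes to collagen, and osteoglycin (Ogn), a short member also called mimecan, both led in alveolar-like cells. Prelp stood there at 1593 and 1587 CPM. Lower down came the unnamed fibroblasts (1009 and 944), inflammatory-like (768 and 690), adventitial-like (591 and 562), peribronchial-like (546 and 504), mesothelial-like (424 and 422) and mural-like cells (392 and 275). The libraries of neighbouring classes did not overlap at any of these steps. Ogn stood at 2287 (2257 to 2317) and 1727 CPM (1698 to 1755) in alveolar-like cells and at 363 and 361 in mural-like cells, the lowest class. Adventitial-like cells held 1247 and 937, inflammatory-like cells 1032 and 770, peribronchial-like cells 892 and 708 and mesothelial-like cells 718 and 635 CPM. Neighbours in that middle stretch overlapped between libraries. Alveolar-like Ogn was 1.83-fold the adventitial-like and 2.56-fold the peribronchial-like level in the vehicle library.

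Versican (Vcan) was a low transcript here. It was highest in adventitial-like cells, at 59.0 (52.6 to 65.9) and 75.3 CPM (67.9 to 83.3), and stood at 37.9 and 69.5 in peribronchial-like, 27.4 and 46.0 in the unnamed, 20.3 and 44.8 in inflammatory-like and 11.5 and 27.7 in alveolar-like cells. Mesothelial-like cells held 3.19 and 9.34 CPM, from 2 and 4 UMIs. Below the adventitial-like level the classes overlapped with their neighbours until the last step to mesothelial-like cells, and the adventitial-like and peribronchial-like ranges overlapped as well.

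Perlecan (Hspg2) stood at 163 and 190 CPM in mural-like cells, which are enveloped by a basement membrane, and at 158 and 172 in adventitial-like cells, 2 classes that overlapped. The unnamed fibroblasts held 129 and 156, alveolar-like cells 111 and 154, peribronchial-like cells 113 and 110 and inflammatory-like cells 71.8 and 96.4 CPM. Mesothelial-like cells were lowest at 59.0 and 49.0 CPM.

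**Figure D2:**
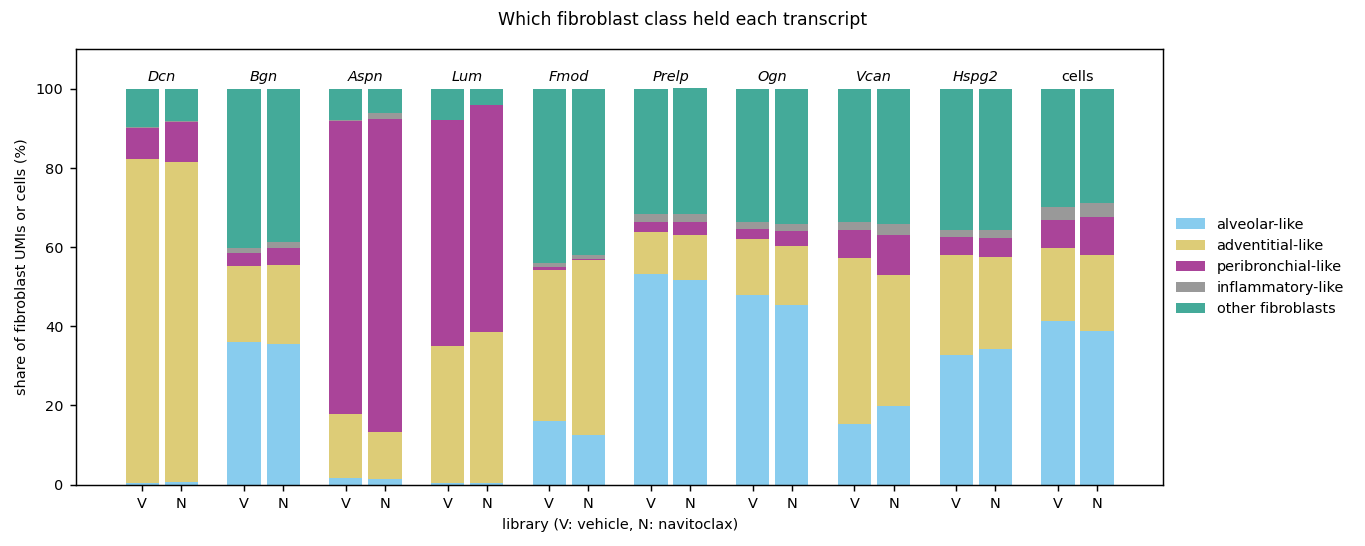
Share of the fibroblasts' UMIs of each gene (vertical axis, percent) that came from each of 5 fibroblast classes, with 1 bar for the vehicle (V) and 1 for the navitoclax library (N); the last pair gives the share of cells. Adventitial-like cells held 81.7% and 81.0% of Dcn and peribronchial-like cells 74.0% and 79.2% of Aspn, from 18.3% and 7.25% of the vehicle fibroblasts.

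In all, 62 cells (34 vehicle and 28 navitoclax) carried at least 3 markers of Cthrc1-positive fibrotic fibroblasts, more than of any other subtype. They are a range of marker counts and not a cluster: 25 of them led by only 1 marker, 28 had a Cthrc1 UMI, 34 lay in cluster 3 and 20 among the peribronchial-like cells. They held 4319 and 4427 CPM of Dcn, 963 and 900 of Lum and 841 and 616 of Aspn. In the vehicle library 16 of the 34 had an Aspn UMI and 1 cell held 185 of the 332, and without the top cell of each library the levels were 391 and 472 CPM. Fmod stood at 243 and 335 CPM in them, above each of the 7 classes, with 40 of the 99 navitoclax UMIs in 1 cell. Without the top cells it stood at 192 and 212 CPM. Ogn stood at 724 and 589. Both numbers of cells are below 50, so no ratio between the libraries is given. Cluster 3 as a whole was not called fibrotic because Cthrc1 stood at 19.0 and 11.8 CPM in it.

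**Figure D3:**
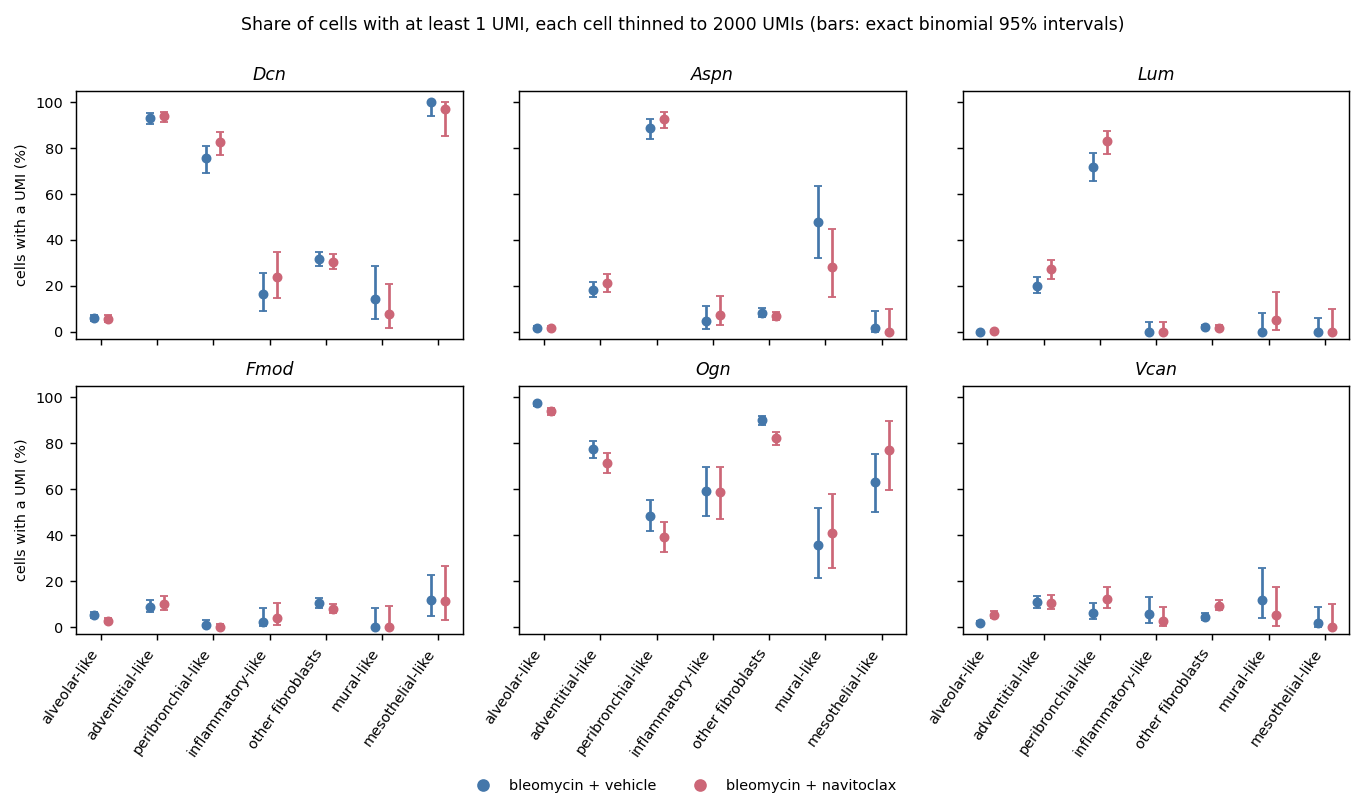
Share of cells with at least 1 UMI (vertical axis, percent) for 6 genes by stromal class, after every cell was thinned to 2000 UMIs, with exact binomial 95% intervals for the vehicle and navitoclax libraries. Aspn was found in 88.7% and 92.8% of peribronchial-like cells, and Ogn in 97.4% and 94.2% of alveolar-like cells; 54 vehicle and 62 navitoclax fibroblasts were too shallow and were left out.

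Versican was higher in the navitoclax library in alveolar-like, adventitial-like, peribronchial-like and the unnamed fibroblasts, and in inflammatory-like cells on few UMIs. In the pooled fibroblasts it stood at 28.2 CPM in the vehicle library (26.2 to 30.3) and at 47.4 in the navitoclax library (44.7 to 50.3), from 739 and 1140 UMIs. The counting intervals did not overlap. The ratio was 1.68 (1.53 to 1.85), where 63 of 13644 genes (0.462%) lay past 1.5-fold in either direction (a fold counted after adding 5 CPM to both levels). The added 5 CPM makes the line hard to pass for genes at low CPM. The share is thus over genes of all levels and not over genes at the level of Vcan. The ratio was 2.40 in alveolar-like (1.91 to 3.04), 2.21 in inflammatory-like (1.17 to 4.37), 1.83 in peribronchial-like (1.31 to 2.59), 1.68 in the unnamed (1.43 to 1.98) and 1.28 in adventitial-like cells (1.10 to 1.49). The inflammatory-like value rested on 15 and 33 UMIs, 14 of them from 1 navitoclax cell. Without the top cell of each library its ratio was 1.59 (0.734 to 3.60) and short of 1.5-fold on the scale with 5 CPM added. No class took that name at resolution 0.5 or with a mitochondrial limit of 10% or 30%, nor in the vehicle library clustered alone. The classes come from the same 2 libraries and are not replicates.

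The summed level of the smooth muscle markers moved with Vcan in some of these classes. Their 8 genes summed to 315 and 584 CPM in alveolar-like cells, 209 and 418 in the unnamed, 280 and 622 in inflammatory-like, 104 and 158 in adventitial-like and 4119 and 4096 in peribronchial-like cells. In alveolar-like cells Acta2 stood at 11.02 and 56.3 CPM and Tagln at 213 and 421, with the defining marker Myh11 at 0.206 and 0.122. Cnn1, Actg2, Lmod1 and Synpo2 stood at 2.439 CPM or less in these cells. Tnc, a matrix gene listed for fibrotic fibroblasts, stood at 116 and 259 CPM there. Their part in the Vcan difference was not tested.

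The share of cells with a Vcan UMI at 2000 UMIs was 1.86% and 5.25% in alveolar-like cells, 4.54% and 9.25% in the unnamed and 6.34% and 12.3% in peribronchial-like cells. Unthinned, the alveolar-like shares were 6.94% and 14.8%. In adventitial-like cells the thinned shares were 10.7% and 10.7%, and the thinned log2 ratio was 0.0521 against 0.329 from all UMIs, so this difference, the smallest of the 5, was smaller still at equal depth. In inflammatory-like cells the thinned shares (5.81% and 2.50%) went against the CPM and no order is read from them. In type II cells, at median depths of 17055 and 18161 UMIs and without thinning, the shares were 0.437% and 0.597%.

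Osteoglycin was lower in the navitoclax library in each of the 5 classes, by similar ratios. Pooled fibroblasts held 1773 CPM in the vehicle library (1757 to 1789) and 1299 in the navitoclax library (1285 to 1314). The ratio was 0.733 (0.722 to 0.743), or 1.37-fold lower, and lay short of 1.5-fold. By class it ran from 0.731 in the unnamed fibroblasts to 0.793 in peribronchial-like cells, and all 5 counting intervals lay below 1. Thinned to equal depth, 97.4% and 94.2% of alveolar-like cells, 77.5% and 71.5% of adventitial-like cells and 48.4% and 39.2% of peribronchial-like cells had an Ogn UMI, and 0.987% and 0.784% of type II cells.

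Asporin and lumican were higher in the navitoclax library over the pooled fibroblasts, and the mix of classes moved with that difference. Pooled Aspn was 218 and 299 CPM (ratio 1.37, 1.32 to 1.42) and pooled Lum 134 and 190 CPM (ratio 1.42, 1.36 to 1.48). Within peribronchial-like cells, the leading class of both, the ratios were 1.11 (1.07 to 1.16) and 1.08 (1.02 to 1.15). Over 13 alternative analyses the log2 ratio there ran from -0.0269 to 0.311 for Aspn and from -0.0757 to 0.169 for Lum. It fell below 0 in 1 of them for Aspn and in 2 for Lum. With the classes weighted to the vehicle library's mix, the fold was 1.10 for Aspn and 1.20 for Lum, against 1.55 for Vcan and 0.748 for Ogn. Unlike the ratios above, these folds were taken after adding 5 CPM to both levels. On that scale the log2 ratio as captured and at the vehicle mix was 0.4445 and 0.139 for Aspn and 0.4892 and 0.263 for Lum. For Vcan it was 0.6585 and 0.628, and for Ogn -0.4472 and -0.419. Lum in adventitial-like cells was 1.51-fold higher in the navitoclax library (1.41 to 1.63) and lay just past the 1.5-fold line. It stayed past it in 4 of 13 alternative analyses and was higher in all 13.

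Over the pooled fibroblasts the remaining members had ratios between 0.830 and 1.22. Pooled Hspg2 was 126 and 154 CPM (ratio 1.22, 1.17 to 1.28), with a ratio of 1.39 in alveolar-like cells (1.28 to 1.51) and 0.973 in peribronchial-like cells (0.781 to 1.21). Pooled Fmod was 54.1 and 44.9 CPM (ratio 0.830, 0.766 to 0.899). The 4 classes with enough UMIs had ratios below 1, and 2 of their counting intervals excluded 1. In alveolar-like cells the ratio was 0.701 (0.563 to 0.871). By cluster, Fmod was lower in clusters 9 and 11 and near a ratio of 1 in clusters 3 and 6. It stood at 103 and 60.0 CPM in cluster 9 (ratio 0.585, 0.479 to 0.710) and at 36.8 and 11.01 in cluster 11 (ratio 0.299, 0.173 to 0.496), where 29 of the 73 vehicle UMIs came from 1 cell. In clusters 3 and 6 the ratios were 0.988 (0.839 to 1.16) and 1.02 (0.893 to 1.16). Pooled Bgn was 3087 and 3233 CPM (ratio 1.05), pooled Prelp 1110 and 1046 (0.942) and pooled Dcn 2850 and 2788 (0.978).

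**Figure D4:**
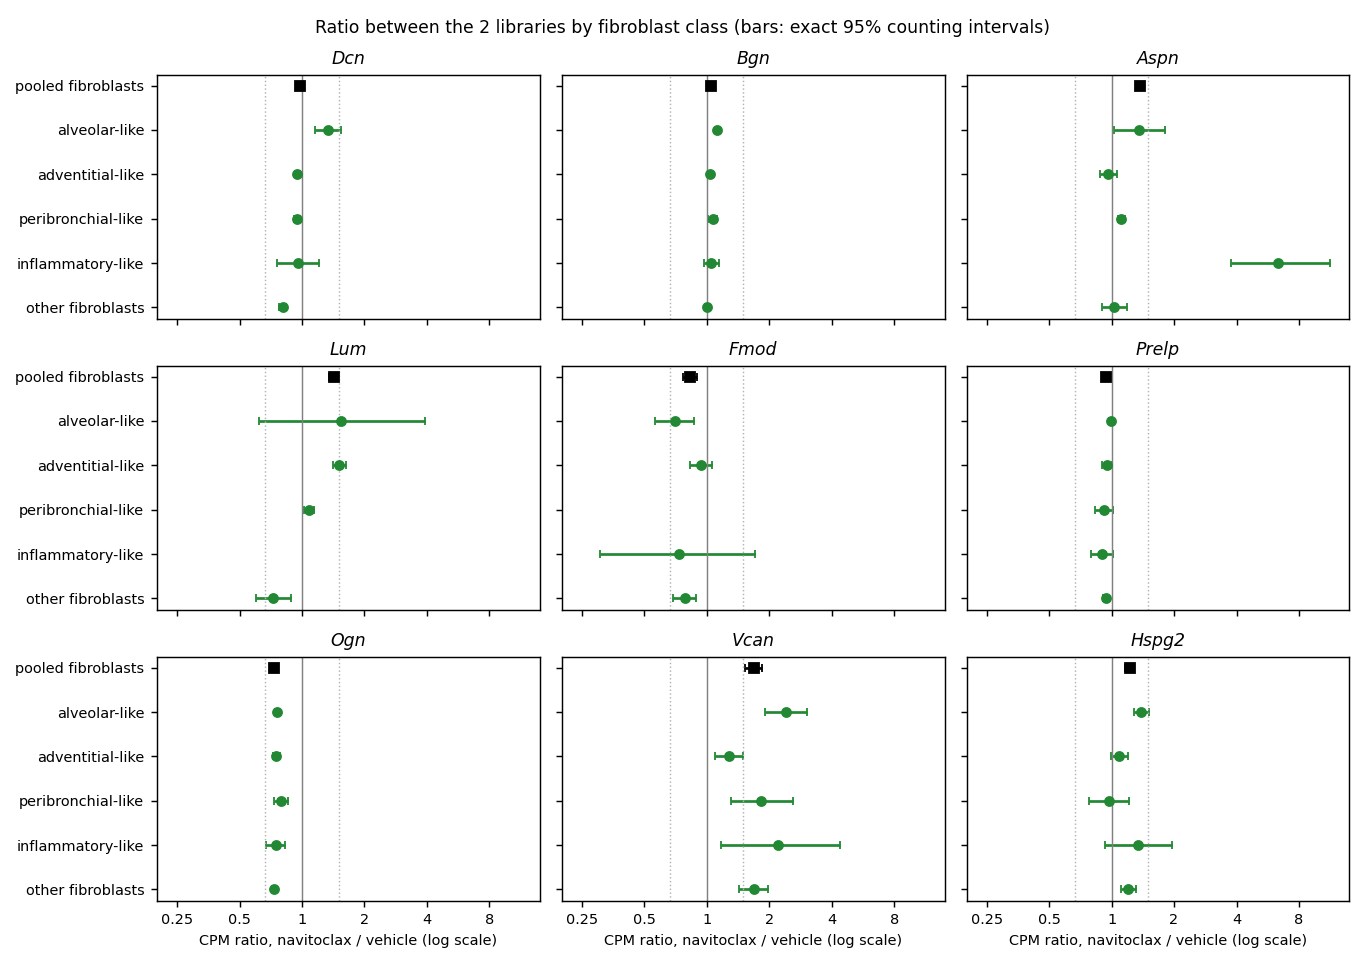
Ratio of CPM in the navitoclax to the vehicle library (horizontal axis, log scale) for each gene in the pooled fibroblasts (square) and 5 classes (circles), with exact 95% counting intervals; dotted lines mark 1.5-fold either way, and classes with under 20 UMIs are left out. All 5 class ratios lie above 1 for Vcan (1.28 to 2.40) and below 1 for Ogn (0.731 to 0.793).

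Class by class, few members lay past 1.5-fold. The count was 1 of 9 in alveolar-like cells (Vcan), where 1.08% of all genes with at least 20 UMIs did so, and 1 of 9 in adventitial-like cells (Lum), where 1.26% did. It was 1 of 8 with enough UMIs in peribronchial-like cells (Vcan, background 6.8%), 2 of 8 in inflammatory-like cells (Aspn and Vcan, background 13.1%) and 1 of 9 in the unnamed fibroblasts (Vcan, background 0.963%). The Aspn value in inflammatory-like cells, 23.0 and 145 CPM, rested on 17 and 107 UMIs, 49 of which came from 1 navitoclax cell, and without the top cells it stood at 16.4 and 80.7 CPM. Vcan in this class was no longer past the line without its top cells. The median log2 ratio of the members was 0.0667 in the pooled fibroblasts, with 5 above and 4 below 0, and that of all genes was 0.00507. By class the members' median ran from -0.0958 in the unnamed fibroblasts to 0.17 in alveolar-like cells.

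Genes that build, bind or cut these proteoglycans were described from 10 lists. In the pooled fibroblasts none of their genes with at least 20 UMIs lay past 1.5-fold, where the share over all genes was 0.462%, so that nothing particular is read from the count. The list medians ran from -0.0144 (keratan sulfate synthesis) to 0.121 (cell surface proteoglycans) on the log2 scale. Of the genes named here Adamts9, a protease that cleaves versican, had the greatest difference on the log2(CPM + 5) scale, 0.50, at 33.4 and 49.1 CPM (ratio 1.47, 1.35 to 1.61). It was highest in alveolar-like cells, at 61.6 and 100 CPM, and higher in the navitoclax library in 5 of 5 classes. Adamts5, of the same family, stood at 44.1 and 36.7 CPM (ratio 0.832) and Adamts1 at 204 and 235 (ratio 1.15).

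Among genes of hyaluronan, versican's partner, 6 of 8 with enough UMIs had ratios above 1 and 2 below. Cd44, the main hyaluronan receptor, stood at 74.9 and 96.8 CPM (ratio 1.29, 1.22 to 1.37), Tnfaip6, which couples heavy chains to hyaluronan, at 24.6 and 32.2 (ratio 1.31, 1.18 to 1.46), and the synthase Has2 at 2.67 and 3.87 CPM from 70 and 93 UMIs. Among perlecan's basement membrane partners 9 of 11 had ratios above 1, led by Col18a1 (100.6 and 118 CPM, ratio 1.18), Col4a1 (476 and 532, ratio 1.12) and Col4a2 (316 and 349, ratio 1.10).

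The enzymes of the sugar chains differed little. The linker enzymes Xylt1, B3galt6 and B3gat3 had ratios of 1.26, 1.18 and 1.09. Of 17 chondroitin and dermatan sulfate genes 9 had ratios above and 8 below 1. The sulfotransferase Chst7 stood at 17.8 and 13.0 CPM (1.37-fold lower, 1.18 to 1.59), Chst3 at 61.0 and 50.9 (1.20-fold lower) and Chst11 at 4.35 and 6.24 (ratio 1.43). Of 14 heparan sulfate genes 10 lay above and 4 below, with Sulf1 at a ratio of 1.16, Hs3st1 at 0.747 and Ndst2 at 0.870. Of 5 keratan sulfate genes 2 lay above and 3 below, with B4galt4 at 0.882, B4galt1 at 1.09 and Chst1 at 0.979.

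Of 9 cell surface proteoglycans 5 lay above and 4 below 1, with Gpc4 at 1.38, Sdc3 at 1.38 and Sdc4 at 1.16. The receptors that soluble proteoglycans engage had Met at a ratio of 1.49 (1.06 to 2.09, from 63 and 86 UMIs), Tlr4 at 1.17 and Egfr at 1.09, with 3 above and 4 below 1 in all. Of the 10 other small leucine-rich proteoglycans listed, 5 had at least 20 UMIs, and Podn among them stood at 75.5 and 85.5 CPM (ratio 1.13).

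The chromosome 13 neighbours did not share 1 direction. In the pooled fibroblasts Omd stood at 22.0 and 15.6 CPM (1.41-fold lower, 1.24 to 1.61) and Ecm2 at 76.8 and 68.6 (1.12-fold lower, 1.05 to 1.20). Ogn was 1.37-fold lower, while Aspn was 1.37-fold higher as captured. At the vehicle mix, with 5 CPM added to both levels, Aspn was 1.10-fold higher. Omd was lower in the 3 fibroblast classes with at least 20 UMIs of it, and Ecm2 in 5 of 5. Their leading classes also differed: peribronchial-like for Ecm2 and Aspn, and alveolar-like for Ogn. Omd was highest in mesothelial-like (39.9 and 25.7 CPM) and adventitial-like cells (35.4 and 20.4), which overlapped.

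Over the 14 profiles of 7 classes in 2 libraries, which share their libraries and depth, the members' log2(CPM + 5) levels were compared with 5075 genes. The most alike pair of members was Prelp and Ogn (Pearson r = 0.92), followed by Aspn and Lum (0.798), Bgn and Ogn (0.743), Aspn and Vcan (0.739) and Vcan and Hspg2 (0.717). Dcn and its chromosome 10 neighbour Lum had r = 0.654, and Aspn and Fmod had r = -0.578. The 3 genes most alike were Add3 (0.9801), Col14a1 and Tgfb3 for Dcn, and Fbn1 (0.884), Loxl1 and Fkbp7 for Bgn. They were Elk3 (0.961), Pde1a and Jam3 for Aspn, and Wif1 (0.943), Ace and Crispld1 for Lum. For Fmod they were Abca1 (0.947), Steap4 and Crtap, for Prelp Rnf215 (0.958), Cblb and Phactr1, and for Ogn Lrp1 (0.932), Colec12 and Mrc2. Fxyd5 (0.958), Il1r1 and Capg were most like Vcan, and Lrrc17 (0.927), Efemp2 and Igfbp7 most like Hspg2. These coefficients describe 14 points of 1 data set.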

How the data were processed

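Deposited UMI counts per gene and cell came from 2 droplet 3′ libraries, produced by the authors with Cell Ranger 4.0.0 (per the file headers) on build mm10 (per the submitters' processing notes). Barcodes under 500 genes or over 15% mitochondrial UMIs were dropped. Scrublet (scanpy 1.11.5) removed 222 and 205 doublets (3.00% and 3.18%). Both libraries were clustered together (2000 variable genes without the members, 30 components, 15 neighbours, leidenalg 0.10.2 at resolution 1). Clusters were named from marker lists by a rule set after the data were seen. It asked for at least 3 markers at 20 CPM, a relative score of at least 0.35 and, for stromal names, the first marker present. In addition, no other cell type list could have more markers among the 10 genes with the greatest fold over the other clusters. Clusters of shallow cells (475 and 444 cells) stayed unnamed. So did cluster 4 (163 and 945 cells) and cluster 5 (585 and 411), for which the alveolar type II list scored highest. All type II values leave these clusters out. The members, related lists and markers were chosen with earlier results of these data known.

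Counts were summed by class and library. Levels are CPM with exact Poisson intervals at 95%. Library ratios have exact conditional intervals, and a gene lies past 1.5-fold on the log2(CPM + 5) scale with at least 20 UMIs. Shares of cells used cells thinned to 2000 UMIs, with exact Clopper-Pearson intervals. In the figure of levels a count of 0 is drawn at the level of 3 UMIs. All 9 members are named; of each list, up to 3 genes with at least 50 UMIs and the greatest pooled log2 ratio; and the 3 genes most like each member, among those reaching 50 CPM. With 1 library per group no test was run. The ratio code was tested on simulated data.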

Additional observations from a re-analysis of the deposited data

Results flagged for a closer look

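Some members lay on opposite sides of a ratio of 1 in different fibroblast classes, with both counting intervals off 1. With 1 library per group none of these differences was tested between conditions. Dcn had a log2 ratio of navitoclax over vehicle in alveolar-like cells that exceeded that in adventitial-like cells by 0.464, in peribronchial-like cells by 0.457 and in the unnamed fibroblasts by 0.686. The alveolar-like Dcn level is low (37.3 and 49.9 CPM), and its log2 ratio of 0.376 was -0.247 when each cell was assigned by its own markers. Lum had a log2 ratio in adventitial-like cells that exceeded that in the unnamed fibroblasts by 0.971, and in peribronchial-like cells one that did so by 0.494. The peribronchial-like log2 ratio of Lum, 0.112, changed sign in 2 of 13 alternative analyses. In the unnamed fibroblasts 94 of the 272 vehicle Lum UMIs came from 1 cell.

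Within the adventitial-like class, Aspn stood at 142 and 78.1 CPM in cluster 6 and at 230 and 329 CPM in cluster 11, a gap of 1.33 between their log2 ratios. One vehicle cell held 77 of the 469 UMIs in cluster 6, and 1 navitoclax cell held 84 of the 597 in cluster 11. Bgn stood at 2552 and 2861 CPM in cluster 6 and at 3650 and 3477 CPM in cluster 11, a gap of 0.234.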

How the results depend on the processing

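One member (Vcan) lay past 1.5-fold in the pooled fibroblasts in every alternative that kept that line. The count was 4 past a ratio of 5 to 4 in either direction and 0 past 2-fold, where 2.85% and 0.0806% of all genes lay past these lines. The members' median log2 ratio, 0.0667, was 0.0353 with each library clustered alone, 0.0515 with doublets kept, 0.0856 as a mean of each cell's CPM and 0.0812 after thinning. Weighting the classes to the vehicle mix and adding the shallow clusters, both chosen after seeing the data, gave 0.0789 and 0.0642. Of 35 library ratios 27 kept their sign in every alternative run and 8 did not. None of the 35 that lay past 1.5-fold changed sign. They cover the pooled fibroblasts and the alveolar-like, adventitial-like and peribronchial-like cells. Ratios of inflammatory-like cells and the unnamed fibroblasts were not rerun under these alternatives. The 8 were Dcn and Prelp in alveolar-like, Aspn, Fmod and Prelp in adventitial-like, and Aspn, Lum and Hspg2 in peribronchial-like cells. All 30 class contrasts past 1.5-fold kept their sign. The background share, 0.462%, was 0.549% at 100 UMIs or more and 0.332% at 1 or more.

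No paired analysis was possible because each group has 1 library. For the same reason no replicate was left out. Class borders limit the sizes: other settings put a fibrotic-like name on part of the unnamed fibroblasts. Depth limits Lum, Fmod and Vcan in the smaller classes, where values rest on under 20 UMIs.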

Other observations

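Hspg2 and Vcan were also counted in epithelial cells, at levels that differed between types in opposite order. The type II-like cells leave out clusters 4 (163 vehicle and 945 navitoclax cells) and 5 (585 and 411), so their values cover part of the type II cells. Hspg2 stood at 19.0 CPM (17.6 to 20.5) and 19.6 CPM (17.8 to 21.6) in type II-like cells of the vehicle and navitoclax libraries and at 2.73 (1.49 to 4.58) and 4.84 CPM (3.35 to 6.76) in ciliated-like cells. At 2000 UMIs per cell 4.05% and 4.97% of type II-like cells had an Hspg2 UMI, against 0.515% and 0.450% of ciliated-like cells. Vcan stood at 0.251 (0.115 to 0.476) and 0.360 CPM (0.155 to 0.709) in type II-like and at 2.73 (1.49 to 4.58) and 2.99 CPM (1.85 to 4.57) in ciliated-like cells, from 8 to 21 UMIs per value. Dcn stood at 6.91 and 6.48 CPM in type II-like and at 7.02 and 9.82 CPM in ciliated-like cells.

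The clusters of shallow cells left unnamed held 3256 and 3261 CPM of Bgn, 1629 and 1425 of Ogn, 1018 and 947 of Prelp and 239 and 226 of Dcn. Their Vcan level was 8.64 and 21.0 CPM, from 9 and 22 UMIs.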
